A study of Homo sapiens with 4 samples.

Results

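The shared p53 peaks between genes are sites of p53 chromatin immunoprecipitation with sequencing (ChIP-seq) that were called in both genotypes of the study and lie outside every annotated gene. A peak of the R273H list was taken when it overlapped a peak of the wildtype list by at least 1 bp and overlapped no RefSeq gene of GRCh38 on chromosomes 1 to 22, X and Y. The ribosomal RNA gene block of chromosome 21 between 8 and 9 Mb was left out. The rule found 202 of the 2008 R273H peaks (95% Poisson interval 175 to 232, covering counting error only). Their partners were 197 of the 2059 wildtype peaks. The members were thus chosen by the 2 sets of peak calls, so sharing is given only as a description. Of the 1306 R273H peaks between genes, 15.5% had a wildtype partner, and of the 1000 wildtype peaks between genes, 19.8% had an R273H partner. Over all 1994 R273H peaks outside the ribosomal block, 21.5% had a wildtype partner.

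HCT116 is an established human colorectal cancer cell line. Cells of passages 13 to 18 were kept as spheroids in a medium whose growth factors were EGF (20 ng/ml) and bFGF (20 ng/ml). One group was labelled p53-R273H and the other wildtype control (named ctrl-19-7 in the sample titles), and each had 1 ChIP library made with the p53 antibody DO-1 and 1 input. The sources used here do not say how R273H was introduced, whether wildtype p53 was still present beside it, or whether either line was 1 clone. With 1 ChIP library per genotype there is no replicate check and no test between genotypes. Peak scores are the authors', were given separately for each list, and are ranked only within a list. Percentiles are mid-ranks among all peaks of the same list. Where a peak is given 2 scores, the first is its own in the R273H list and the second is that of its wildtype partner.

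p53 is a stress-activated transcription factor that binds DNA as a tetramer, at a response element made of a pair of short palindromic half-sites. R273H changes an arginine that contacts the DNA. Many p53 sites lie away from gene starts, in introns or between genes, where they can act as distal enhancers. The space between genes also includes the repeated DNA of centromeres and chromosome ends. No genome sequence was used here, so the response element could be searched only in RefSeq promoters, and p53 binding at these peaks was not tested.

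The promoter sequences below, from RefSeq with the build GRCh38.p14, are shown because these 3 promoters are the ones a wildtype partner reached. Each runs 5′ to 3′ along its gene's strand, from 250 bases before the listed start to 50 bases after it, and capitals mark the bases inside the wildtype partner.
PLK3 (chr1:44800127-44800426, plus strand): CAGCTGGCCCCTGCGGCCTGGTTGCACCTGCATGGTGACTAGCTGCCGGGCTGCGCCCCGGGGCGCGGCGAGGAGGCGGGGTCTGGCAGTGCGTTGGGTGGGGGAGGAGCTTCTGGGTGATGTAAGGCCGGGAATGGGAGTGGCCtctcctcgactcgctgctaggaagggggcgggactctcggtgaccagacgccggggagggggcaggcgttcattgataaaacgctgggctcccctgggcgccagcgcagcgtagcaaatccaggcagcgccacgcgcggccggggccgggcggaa
LINC01707 (chr1:69055648-69055947, plus strand): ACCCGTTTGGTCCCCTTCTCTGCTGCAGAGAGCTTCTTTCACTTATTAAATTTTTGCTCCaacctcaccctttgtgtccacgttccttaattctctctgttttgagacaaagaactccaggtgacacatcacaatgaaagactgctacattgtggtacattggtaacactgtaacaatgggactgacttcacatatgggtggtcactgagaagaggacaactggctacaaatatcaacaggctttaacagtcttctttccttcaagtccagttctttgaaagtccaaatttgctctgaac
MIR663AHG (chr20:26209184-26209483, minus strand): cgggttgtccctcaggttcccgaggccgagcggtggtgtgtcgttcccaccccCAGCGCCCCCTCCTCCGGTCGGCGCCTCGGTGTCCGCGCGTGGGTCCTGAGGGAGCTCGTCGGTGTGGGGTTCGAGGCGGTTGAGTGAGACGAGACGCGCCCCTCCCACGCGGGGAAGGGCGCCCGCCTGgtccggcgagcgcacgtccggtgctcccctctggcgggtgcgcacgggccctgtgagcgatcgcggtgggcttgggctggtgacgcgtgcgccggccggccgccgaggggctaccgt
The capitals cover 145 bases at PLK3, a polo-like kinase gene induced by stress, 60 bases at the long noncoding RNA (lncRNA) gene LINC01707 and 130 bases at MIR663AHG, the host gene of a microRNA. The R273H peak itself covered 84 bases of the LINC01707 window, 183 of the MIR663AHG window and none of the PLK3 window. A search was made for the p53 response element as 2 adjacent half-sites with no spacer, all core letters intact and at most 2 mismatches elsewhere. Of 35116 RefSeq promoters of the same length, 0.157% held it, and none of these 3 did. That says only that these letters are not in these windows. GC content was 71.0% at PLK3, 42.3% at LINC01707 and 75.3% at MIR663AHG, against a median of 58.7% over all promoters.

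The 202 peaks fell into 3 kinds of place, described here by position. A first group of 142 peaks lay on chromosome arms, 70.3% of the total (95% exact binomial interval 63.5 to 76.5). A further 38 peaks, 18.8% (13.7 to 24.9), lay in the longest gene-free span of their chromosome, on 11 chromosomes; as background, such spans commonly lie around the centromere. The remaining 22 peaks, 10.9% (6.95 to 16.02), lay within 3 Mb of a chromosome end, taken as the first base or the last annotated gene or peak. The arm group holds every peak outside the gene-free spans and chromosome ends, so it can include peaks remote from genes. On chromosomes 21 and 22 the longest spans, as drawn from the listed gene positions, ran from 498025 to 5010453 and from 412369 to 10685646. Genes were taken by chromosome name alone, and these borders were not checked against the assembly. Outside these spans lay chr21:12535036-12535900, 502266 bp from ANKRD30BP2, and chr22:14509943-14510451, 754038 bp from LOC112268290. Both were counted as arm peaks, and whether such peaks lie around a centromere was not tested. These groups were drawn after the positions had been seen, and the intervals cover counting error only.

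**Figure D1:**
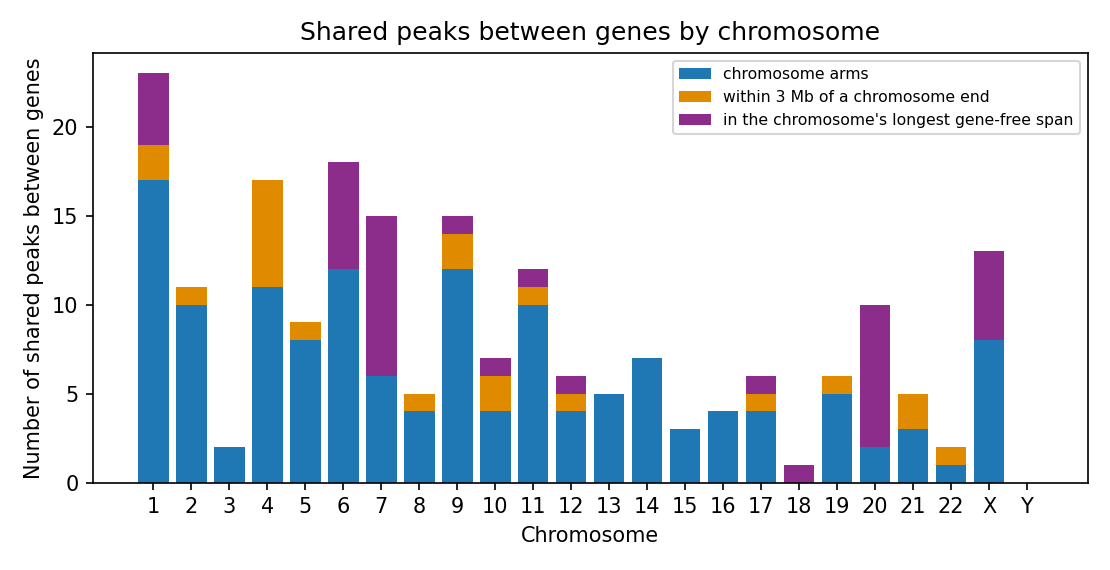
Number of shared peaks between genes (vertical axis) on each chromosome (horizontal axis), stacked by position: chromosome arms, within 3 Mb of a chromosome end, or in the chromosome's longest gene-free span. Chromosome 1 had the most, 23, chromosomes 7 and 20 had 9 and 8 in their gene-free spans, chromosome 4 had 6 near its ends, and the Y chromosome had none.

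Chromosomes 1, 6 and 4 held the most shared peaks between genes, with 23, 18 and 17, and the Y chromosome held none. These are plain counts, not set against chromosome length or the number of R273H peaks on each chromosome. Chromosome 20 had 10, of which 8 lay in its gene-free span. Joining members within 10 kb of each other gave 188 loci, so most stood alone. Within 100 kb there were 181 loci, of which 16 held more than 1 member, 37 members in all.

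Peaks in the 3 places differed in width and in distance to genes. The median R273H width was 333 bp on arms (quartiles 229 to 497), 428 bp near ends and 3114 bp in gene-free spans (899 to 4309). Only 2 of 142 arm peaks reached 1 kb, against 28 of 38 in gene-free spans. The median distance to the nearest gene was 13144 bp on arms, 1726 bp near ends and 801678 bp in gene-free spans, where distance follows from how the group was drawn.

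**Figure D2:**
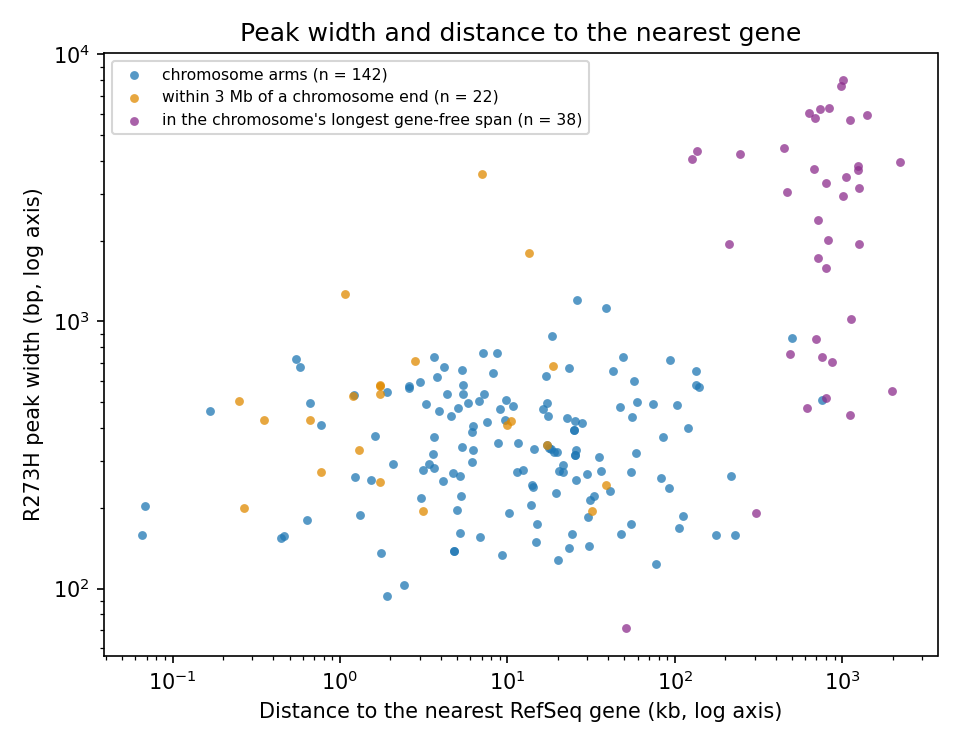
Width of each R273H peak in bp (vertical log axis) against its distance in kb to the nearest RefSeq gene (horizontal log axis), 1 point per shared peak, coloured by position. Of the gene-free span peaks, 28 of 38 are at 1 kb or more, with a median of 3114 bp over all 38, while arm peaks are centred at 333 bp and spread from 0.066 to 754 kb.

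The highest-scoring shared site on the arms was chr2:70596538-70597740, between TGFA, which encodes an epidermal growth factor receptor ligand (42712 bp away), and the adducin gene ADD2 (59044 bp). It ranked 2nd in the R273H list with a score of 3114, and its partner scored 3100. The next was chr1:181134588-181135714, 41688 bp from IER5, an immediate early response gene, and 38770 bp from LINC01732, at 3100 in both lists. These were the 2 arm peaks over 1 kb wide, at 1203 and 1127 bp, and their partners were 1223 and 1213 bp wide.

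A further site lay between receptor genes. The peak at chr21:33366995-33367754 lay 7131 bp beyond the 3′ end of IFNAR1, a type I interferon receptor gene, and 35128 bp before IFNGR2, a chain of the interferon gamma receptor. It scored 1609 for R273H and 3100 for wildtype. The peak at chr12:124938378-124939098 scored 1524 and 3100 in the same order and lay 549 bp from the aspartate transfer RNA gene TRD-GTC2-10. The helicase gene DHX37 was 7728 bp away. Wildtype scores of 3100 are tied, and the partners of 4 members carried that score, so these cannot be ordered.

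Further strong arm sites flanked genes of several kinds. The peak at chr13:50529222-50529894, 579 bp beyond the 3′ end of DLEU1, a lncRNA gene deleted in lymphocytic leukaemia, scored 1671 for R273H and 2804 for wildtype. The peak at chr1:234618352-234618993 lay 8174 bp upstream of IRF2BP2, a transcriptional corepressor gene, with scores of 965 and 2317. The peak at chr13:48066263-48067022 lay 8702 bp from MED4, a Mediator subunit gene, and scored 908 and 1134. A weaker peak at chr13:48072301-48072578 stood 3146 bp from MED4, scoring 141 and 328. Both of these sites lay beyond the 3′ end of MED4. On chromosome 10, the peak at chr10:127863073-127863747 lay 4171 bp from the pseudogene BUB1P1 and 14094 bp from CLRN3, a clarin gene, and scored 813 and 2422.

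Some strong peaks had a distant nearest gene. The peak at chr16:25553570-25554308 lay 48750 bp from the lncRNA gene LOC105371147 and 137651 bp from HS3ST4, a heparan sulfate sulfotransferase gene, and scored 1249 and 2608. The peak at chr6:109882050-109882650 lay 56624 bp from FIG4, a phosphoinositide phosphatase gene, and scored 1122 and 2030. Of the 142 arm peaks, 12 were over 100 kb from any gene, and their R273H scores ran from 51.4 to 600.45.

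In the major histocompatibility region of chromosome 6, 4 shared peaks lay within 62.2 kb, more than at any other locus joined at 100 kb. The one at chr6:31337052-31337520, between HLA-C (64960 bp) and HLA-B (16355 bp), scored 568 for R273H and 2561 for wildtype. HLA-B and HLA-C encode class I molecules that present peptides to T cells. A pair at chr6:31390282-31390384 and chr6:31390438-31391000 scored 60.0 and 726 in the R273H list and fell under 1 wildtype partner scoring 1447. These lay 10327 and 9711 bp from MICA, which encodes a stress-induced ligand for natural killer cells. The last, chr6:31328761-31328888, scored 60.3 and 368.

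A few known p53 target genes had a shared peak beside them. Genes from 9 lists were matched to the annotation (276 of 281 symbols), and a gene counted when it was the nearest on either side of a member within 100 kb. Of 151 p53 target genes in 3 of these lists, 4 qualified: PLK2, PLK3, GDF15 and IER5. Over all annotated gene symbols, 0.426% did. When only coding genes were considered, 8 of 151 qualified, with CDKN1A, NOTCH1, FBXO32 and TGFA added, against 0.769% of coding genes. The lists were written with earlier results of these data known, so these counts are a description.

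The polo-like kinase and cell cycle inhibitor genes among them were PLK2, PLK3 and CDKN1A. PLK2, a polo-like kinase gene, had its peak 1910 bp upstream at chr5:58461996-58462537, scoring 746 for R273H and 2135 for wildtype. PLK3 had a peak 446 bp upstream at chr1:44799777-44799931 that scored 52.4, close to the lowest R273H score of 50.02, while its partner scored 415. The R273H peak was 155 bp wide and the wildtype partner, at chr1:44799749-44800271, 523 bp, and the wildtype partner alone reached into the promoter printed above. CDKN1A encodes the cell cycle inhibitor p21. Its upstream shared site at chr6:36667091-36667476 was 8987 bp from the gene and 6145 bp from the lncRNA gene PANDAR, and scored 233 and 518.

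The other listed targets were GDF15, IER5, TGFA, NOTCH1 and FBXO32. GDF15 encodes a stress-induced cytokine of the transforming growth factor beta family. The peak at chr19:18373578-18374313 lay 11845 bp from GDF15 and 3628 bp from the peptidase gene PGPEP1, and scored 820 for R273H and 2015 for wildtype. The peak next to NOTCH1, a cell fate receptor gene, was 4462 bp away and scored 152 and 434. FBXO32, an F-box ubiquitin ligase gene, was 71026 bp from a peak scoring 904 and 1858. Apart from PLK3, the peaks next to listed genes all stood at or above the 88.3 percentile for R273H and the 89.5 percentile for wildtype.

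**Figure D3:**
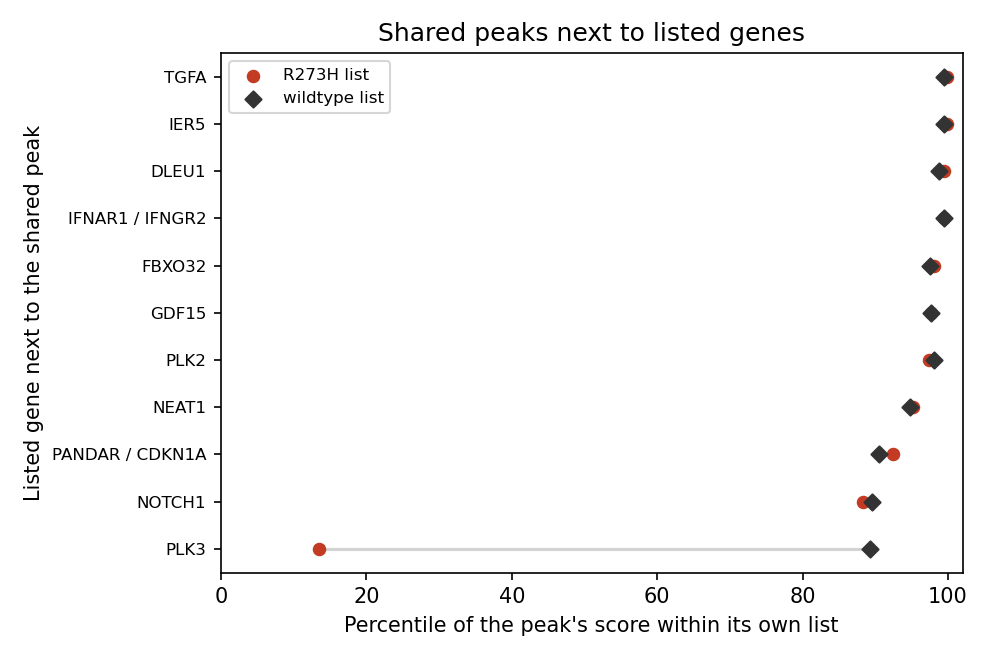
Percentile of the score within its own list (horizontal axis) for each shared peak next to a listed gene (vertical axis), circles for the R273H list and diamonds for the wildtype list. PLK3 stands at the 13.4 percentile for R273H and the 89.2 percentile for wildtype; the other 10 loci stand above the 88 percentile in both.

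None of 22 apoptosis targets lay next to a member under either way of counting neighbours. Over all genes 0.426% qualified, and over coding genes 0.769%. With shares this low, finding none in a list of this size cannot be read as absence by function. Among 27 noncoding genes listed for their links to p53, 3 did: DLEU1, PANDAR and NEAT1, the scaffold RNA gene of nuclear paraspeckles. A share over noncoding genes alone is not given here. The NEAT1 peak at chr11:65421048-65421578, 1220 bp from the gene, scored 396 for R273H and 926.5 for wildtype. Of 18 interferon and cytokine receptor genes, IFNAR1 and IFNGR2 qualified, both through the peak between them. No colorectal stem cell marker, Wnt feedback target, cell cycle gene repressed through p21 or marker of other cell types was the nearest gene of any type. These lists are likewise too short, at the shares above, for that to be read as absence by function. NOTCH1 joined the stem cell markers when only coding genes counted.

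Coding genes outside these lists also had shared peaks nearby, and 3 are named here after their values were seen. CD70, a tumour necrosis factor family ligand gene, had a peak at chr19:6577250-6577869, 3779 bp away, scoring 761 for R273H and 1569.5 for wildtype. FST, which encodes the activin-binding protein follistatin, had one 3647 bp away, scoring 129 and 432, below the arm medians of 155 and 545. STK17A, a serine/threonine kinase gene of the death-associated kinase family, had one 5215 bp away, scoring 146 and 404, also below those medians. All 3 peaks lay on the arms and over 2 kb from the gene.

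The series sought lncRNAs linked to R273H. Outside gene-free spans, the nearest gene was a lncRNA gene for 65 of 164 peaks (39.6%), a pseudogene for 55 (33.5%) and a protein-coding gene for 39 (23.8%). Over all annotated genes, these types made up 30.7%, 28.2% and 33.6%. Those are plain counts of genes, not the shares expected for the nearest gene of a position between genes. An excess of any type was not tested. The rule leaves out any peak that overlaps a gene, so peaks over a gene's start could not be members. Within that limit, 7 of 197 members on chromosomes with listed starts lay within 1 kb of one: 2 beside LOC105378927 and 1 each at FARP2, LINC01707, MIR663AHG, LINC02846 and PLK3. The median distance to a listed start was 50033 bp. For 126 of the 202 members the nearest gene had no listed start, so the distance to its own start could not be measured. Members may thus lie closer to a gene's start than these values show. The closest member to any gene was chr19:8502706-8502863, 66 bp from the adaptor gene PRAM1, with scores of 96.2 and 95.95.

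FARP2, a guanine nucleotide exchange factor gene, was among the genes with the closest members, though PRAM1, MIR663AHG and LINC01707 had closer ones. Its peak at chr2:241355532-241356036 ended 249 bp before the gene, with scores of 301 for R273H and 517 for wildtype. At LINC01707 the peak at chr1:69055270-69055731 ended 167 bp before the gene and scored 264 and 626. At MIR663AHG the peak at chr20:26209301-26209503 lay 68 bp from the gene and scored 100.21 and 91.3. The FARP2 and LINC01707 peaks ranked at or above the 93.5 percentile for R273H and the 90.5 percentile for wildtype, and the MIR663AHG peak at 80.6 and 69.8.

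Partners lay close to their peaks on arms and near ends. The midpoints of the R273H peak and its partner were a median of 35.8 bp apart on arms (quartiles 18.6 to 74.4) and 37.8 bp near ends (13.8 to 68.4), but 369 bp in gene-free spans (67.6 to 966). On arms the wildtype partner was the wider in 129 of 142 pairs, and 100 R273H peaks lay wholly inside it. In gene-free spans it was wider in 17 of 38. Of the 197 partners, 6 covered 2 members each, and 1 member, at chr8:79124102-79124424, had 2 partners. No partner overlapped a gene.

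Peaks ranked high for R273H tended to have partners ranked high for wildtype, with a Spearman rho of 0.75 and a Pearson r of 0.77 on log10 scores over the 202 peaks. These are descriptions across peaks, which share the 2 libraries. On arms rho was 0.75 over 142 peaks, and in gene-free spans 0.14 over 38. The median R273H score was 155 on arms (quartiles 84.2 to 382), 142 near ends and 66.0 in gene-free spans. In the wildtype list the medians were 545 (293 to 1087), 362 and 61.6. No gene-free span peak scored 500 in either list, whereas 28 arm peaks did for R273H and 77 for wildtype.

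**Figure D4:**
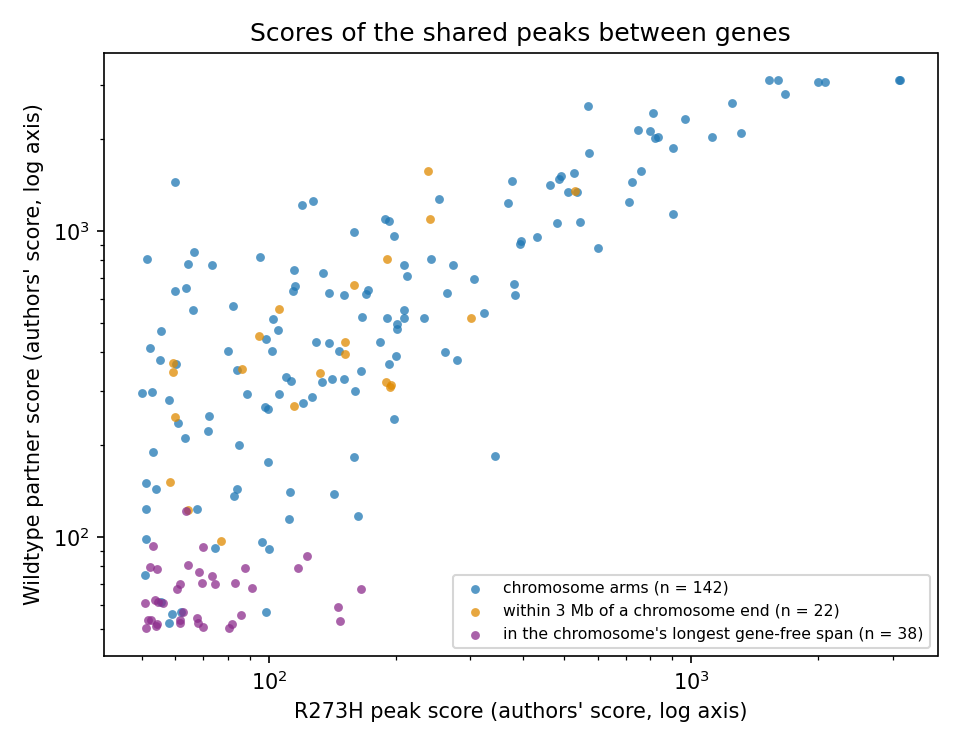
The authors' score of each R273H peak (horizontal log axis) against that of its wildtype partner (vertical log axis), 1 point per shared peak, coloured by position. Arm peaks run from low to high in both lists together, and the 38 gene-free span peaks sit in the lower left corner, at most 166 for R273H and 122 for wildtype.

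Of the 142 arm peaks, 102 stood within 10 percentage points of the same place in both lists, but 13 stood over 50 points higher in the wildtype list and none over 50 points higher in the R273H list. The largest shift was at chr10:21427921-21428054, 9267 bp from LOC105376445, which scored 50.1 for R273H and 295 for wildtype. The next, chr5:164119996-164120154, lay 176551 bp from LINC03000 and scored 51.4 and 809.57. PLK3 was the third, and peaks beside XNDC1CP (51.25 and 150) and IGKV1OR1-1 (51.2 and 123) followed. These 5 peaks were 134 to 336 bp wide and were called just above the lowest R273H score.

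The 5 largest shifts the other way were all in gene-free spans. The peak at chr7:59127562-59130725 scored 147 in the R273H list and its partner 52.96, a difference of -72.1 percentage points. It was followed by chr20:27530455-27533935 (80.5 and 50.4), chr11:51668242-51672061 (82.0 and 51.75), chrX:62162334-62162809 (69.9 and 50.9) and chr6:59108857-59116452 (145 and 59.0). Of the 38 gene-free span peaks, 23 stood higher for R273H and 15 for wildtype. Percentiles depend on what else a list holds, and 738 of the 1306 R273H peaks between genes lay in these spans.

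**Figure D5:**
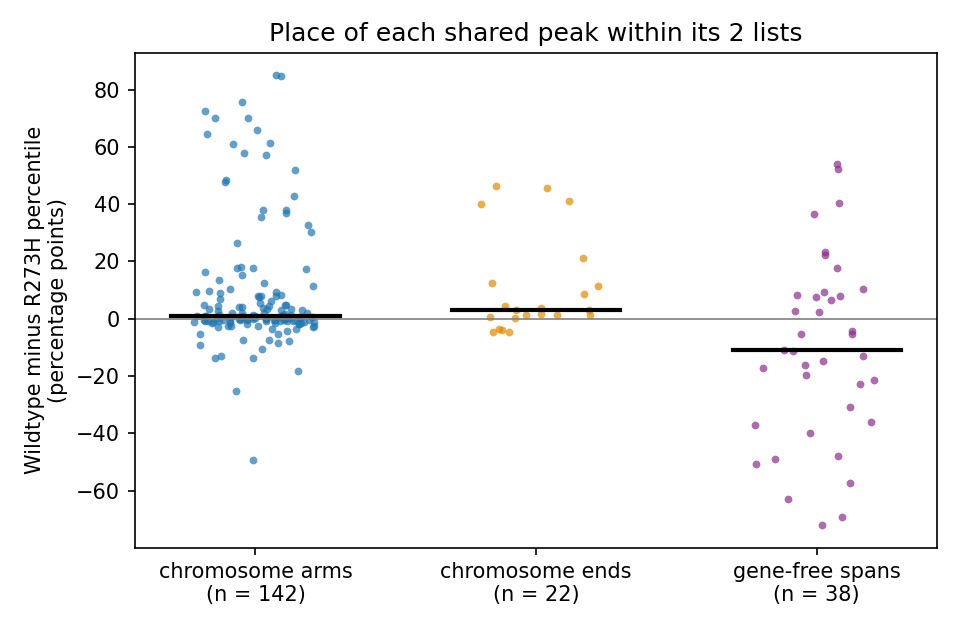
Wildtype minus R273H percentile of each shared peak in percentage points (vertical axis) by position (horizontal axis), 1 point per peak with the median as a black line. The medians are 0.86 on arms, 2.97 near ends and -11.0 in gene-free spans, and the arm points stretch to 84.9 above 0 but only to -49.2 below it.

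Most gene-free span peaks were broad, 28 of 38 at 1 kb or more, and all 38 scored at most 166 for R273H. The widest was chr20:27564518-27572505, 7988 bp, with a partner of 10784 bp; it scored 166 for R273H and 67.4 for wildtype. Chromosome 7 held 9 of the 38, chromosome 20 held 8, chromosome 6 held 6 and the X chromosome 5, again as plain counts. The 10 under 1 kb included all 5 on X, at 445 to 736 bp, and the narrowest was chr6:60230284-60230354, 71 bp wide and 51084 bp from a gene. The peak farthest from any gene, chr9:45338782-45342723, was 2198902 bp from LOC102724904 and scored 54.4 and 78.7. The next farthest were chrX:60786383-60786929 (1992204 bp), chr7:59279492-59285414 (1411043 bp) and chr7:59131441-59133386 (1262992 bp). In that order they scored 54.0 and 51.2, 53.2 and 93.05, and 62.7 and 56.8. Then came chr7:59127562-59130725, named above, at 1259113 bp. The 700 R273H peaks without a partner in such spans also scored low, at most 156. Their median width was 855.5 bp (quartiles 476.5 to 1943), against 3114 bp for the 38 members. A wider peak meets an overlap rule of 1 bp more easily, so the width of the members is tied to the rule. Of all 738 R273H peaks between genes in such spans, 5.15% (95% exact binomial interval 3.67 to 7.00) had a partner. The share was 27.8% (23.9 to 31.9) of 511 on arms and 38.6% (26.0 to 52.4) of 57 near ends. The 511 arm peaks are a remainder and can include peaks remote from genes. Having a partner is part of the rule that chose the members, and the position groups were drawn after the positions had been seen. The shares are therefore a description, and the intervals cover counting error only.

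Some of the 22 peaks near chromosome ends shared a layout. On chromosomes 4, 5 and 10 a shared peak began at base 10001 in both lists. The widest of these, chr5:10001-11805, scored 238 in the R273H list, and its partner ended 3 bases later at 11808 and scored 1571. Peaks near the far ends of chromosomes 1, 4, 10 and 21 lay 1724 to 1726 bp from RPL23A pseudogenes (RPL23AP25, RPL23AP84, RPL23AP60 and RPL23AP4). Each ended at the same base in both lists, such as 248934847 on chromosome 1. Their R273H scores ran from 94.5 to 240 and their wildtype scores from 454 to 1095. The peak beside RPL23AP79 on chromosome 19 did not share this layout: it was 1064 bp from the pseudogene and ended at 58597892, and its partner at 58597802. Of the 22 peaks near ends, 18 stood higher by percentile in the wildtype list.

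Some members matched another member in both width and R273H score. The peaks at chrX:140997670-140997807 and chrX:141247330-141247467, beside the testis antigen genes SPANXB1 and SPANXC, were both 138 bp wide and both scored 200.8 in the R273H list. In the wildtype list they scored 476 and 497. On chromosome 9, peaks at 40793721 and 64914515 were both 317 bp wide and both scored 208.39. They lay 25436 and 25469 bp from the transcribed pseudogenes LOC100132004 and LOC100132154. Another 3 chromosome 9 peaks, among the strongest of all members, did not match in width or score. They lay 5332 to 5458 bp from the lncRNA genes LOC105379451, LOC105376044 and LOC105379439. Their widths were 657, 537 and 580 bp in that order, and their R273H scores 1994, 2073 and 1314. No peak sequences were compared, so whether any of these peaks are copies was not tested.

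A member could also match a peak inside a gene. The peak at chr4:33746881-33747456 was 576 bp wide and scored 600.45, as did a peak inside LINC00475 on chromosome 9, while their wildtype partners scored 879 and 1654. The peak at chr16:4140713-4141138 matched one inside PTPN14, a tyrosine phosphatase gene, at 426 bp and 376.76, with wildtype scores of 1452 and 912. In all, 6 members scoring at least 100 shared both width and R273H score with another R273H peak. The sources used here do not say how reads with several possible places were assigned, and the part of copied sequence in these scores was not tested. Below a score of 100, 8 more members matched some other peak in this way.

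The 142 shared arm peaks are set here beside the 226 shared R273H peaks inside genes. The sets differ in position, since 203 of the 226 lay on arms and 23 within 3 Mb of a chromosome end. Inside genes the median R273H score was 148 (quartiles 85.1 to 301) and the median width 364 bp, against 155 and 333 bp on arms. The midpoint offset was 30.8 bp and rho 0.79 inside genes. No shared peak inside a gene can lie in a gene-free span, so that group has no counterpart inside genes. Of 688 R273H peaks inside genes, 32.8% had a wildtype partner. The 369 arm peaks between genes without a partner had a median score of 59.5 and a median width of 188 bp. Their median distance to the nearest gene was 42987 bp, against 13144 bp for the 142 shared arm peaks. The arm class is a remainder in both sets, so each can hold peaks remote from genes. The 369 peaks reached 1180510 bp from a gene and 5318 bp in width, and the 142 reached 754038 bp and 1203 bp. How many of either set lie around a centromere was not tested. None of these differences was tested, since peaks are not replicates.

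Near the limit of the rule, the smallest overlap was 24 bp, at chr6:31390282-31390384 in the MICA region. The next were 70 bp at chr6:60230284-60230354 and 74 bp at chr3:30093515-30093774, the latter 83120 bp from RBMS3, an RNA-binding protein gene, with scores of 112 and 140. Just outside the rule, R273H peaks at chr8:44348813-44350994, chr21:29403901-29404138 and chr6:59669375-59671957 missed a wildtype peak by 8, 28 and 35 bp, with R273H scores of 50.3, 77.7 and 61.7. Of the 1104 R273H peaks between genes without a partner, 20 came within 1 kb of a wildtype peak.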

How the data were processed

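The 2 peak lists, 1 per ChIP library, gave chromosome, start, end, name and score. Per the submitters' processing notes, the tools were Bowtie 1.2.2, HOMER and MACS and the build was hg38, with no roles stated; the sources used here do not give the peak threshold, use of the input or pooling. The scores are the authors' deposited values, whose scale is not stated; they began at 50.02 for R273H and 50.01 for wildtype. The sample descriptions name the lists inconsistently, so the name of each list was matched to a ChIP sample title. Peak numbers began at 193 and 228, and peaks with lower numbers were not analysed here. The depth of the libraries is unknown.

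Peaks were overlapped at 1 bp or more and set against 59679 RefSeq genes of GRCh38.p14, the assembly of hg38, using Python 3.11.15, pandas 2.3.3 and scipy 1.17.1. Genes were taken by chromosome name alone. Any entry on an alternate or patch sequence of a chromosome would have entered with its position on that sequence. Such entries were not looked for, and they could alter membership, nearest genes and the borders of gene-free spans. With several partners, the one with the longest overlap was used. Gene strand and starts came from 35116 RefSeq promoters, none on chromosome 8. Overlap counting was tested on simulated data: all 300 planted overlaps among 2008 peaks were found in each of 5 rounds. Named peaks followed a rule: the 12 highest scores in each list, the 5 largest percentile shifts each way, the 5 nearest to and farthest from genes, the 3 on each side of the overlap limit, and neighbours of listed genes. Other peaks, such as those by MICA, at promoters and with equal width and score, were named after their values were seen. Some neighbouring genes are not reported here. Motif scans of the peaks themselves were not run without a genome sequence. The members and lists were chosen with earlier results of these data known. Alternatives changed the overlap, score filter, gene types and distances.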

Additional observations from a re-analysis of the deposited data

How the results depend on the processing

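The count of 202 shared peaks between genes stayed within 1.5 times under a reciprocal overlap of 50% (160), midpoints within 200 bp (176), other gene sets (214 and 275), a 2 kb margin around genes (172) and without gene-free spans (164). Only scores of at least 100 in both lists (110) and a 10 kb margin (120) moved it further. No paired analysis was possible because each genotype had 1 ChIP library.

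The share of shared peaks that lie between genes, 47.2%, was 64.3% with protein-coding genes only, 40.2% with the 2 kb margin, 28.0% with the 10 kb margin and 42.1% without gene-free spans. In the main setting, 70.5% of the 1566 R273H peaks without a partner lay between genes. In the wildtype list the share was 46.6% of 425 shared peaks and 49.6% of 1618 without a partner. These differences were not tested. The median R273H score of 118 was 151 with reciprocal overlap, 209 with the score filter, 86.7 with the 10 kb margin and 151 without gene-free spans. The median wildtype score of 384 was 683, 267 and 517 under the last 3 of these. The median distance to a gene, 17552 bp, was 76286 bp to coding genes, 28940 bp to coding and lncRNA genes, 8438 bp with the score filter and 10115 bp without gene-free spans.

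Listed p53 targets next to members numbered 4, or 8 by coding neighbours and 10 by any gene within 100 kb, a count under which 1.54% of all genes qualified. For p53-linked lncRNA genes the numbers were 3, 0 and 5, where the 0 is fixed because noncoding genes cannot be coding neighbours, and for stem cell markers 0, 1 and 1. Within gene-free spans alone, rho was 0.14 and the midpoint offset 369 bp. Analyses restricted to or leaving out gene-free spans were added after seeing the data. Planned scans of the p53 element within peaks, with their alternatives, were not run.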
